A study of Mus musculus with 4 samples.

Results

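The proteasome is the main protease of the cytosol and nucleus, and its genes were followed here in livers of mice whose selenocysteine tRNA gene, Trsp, was removed or mutated. The members are the genes whose symbol in the platform annotation starts with Psma to Psmg and a number, without the immunoproteasome subunits Psmb8 and Psmb9. There were 45 such genes, read by 66 probes, among 9285 named genes. They comprised 16 genes of the core particle (Psma and Psmb), 20 of the regulatory cap (Psmc and Psmd), 4 activators (Psme) and 5 others, namely the inhibitor Psmf1, the assembly factors Psmg1, Psmg2 and Psmg3, and Psme3ip1, which encodes a partner of an activator and no subunit. Not all 45 are constitutive in the usual sense: Psmb10 is an interferon-inducible catalytic subunit, and Psmb11 is known from the thymus. Psma8, Psmc3ip, Psme2b and Psmg4 match the same rule in the mouse gene table and had no named probe.

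The core particle is a barrel of stacked rings. Alpha subunits form the outer rings and gate the entry, and beta subunits form the inner rings, in which a few carry the cutting sites. The cap binds ubiquitin-tagged proteins, removes the tag, and unfolds and threads the substrate with a ring of ATPases. Transcription of subunit genes is known to respond to the factor NRF1 (Nfe2l1) when the protease is impaired, and in some settings to NRF2 (Nfe2l2), the regulator of antioxidant and detoxifying enzymes.

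Livers of male mice on a mixed B6/FVB background, aged 7 to 8 weeks and fed a selenium-sufficient diet, were compared with wild-type littermates on 2-colour arrays. DTrsp mice lacked Trsp in the liver (average of 4 animals). A34 mice carried 2 copies of a transgene for the tRNA with T34 changed to A34 (4 animals), G37L mice 2 copies of one with A37 changed to G37 (4 animals), and G37H mice 16 copies of that same G37 transgene (3 animals). The sources used here do not say how Trsp was removed, whether the transgenic livers still had their own Trsp, or whether wild-type animals served in more than 1 comparison. Each comparison was deposited as 1 averaged ratio per probe, so the spread between animals is unknown and no test, SD or interval can be given for any value below. Values are log2 ratios of the line (Cy5) over wild type (Cy3), a direction that the dye labels make likely and that would turn every sign if it were wrong. The base of the logarithm is read as 2 and is not stated. A ratio holds no level, so neither the abundance of a transcript nor the presence of liver markers could be checked. Trsp itself had no named probe, so the loss or change of the gene could not be checked on the arrays either. In bulk liver, fewer cells of a type and less RNA per cell cannot be told apart. Over all 9285 genes, the median was 0.16 in DTrsp and 0.07 in A34, with -0.11 in G37L and -0.11 in G37H, and the members are read against these levels.

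In DTrsp liver, proteasome genes lay above wild type nearly throughout. The median of the 45 members was 0.45, a 1.37-fold ratio, which became 0.29 with the median of all genes subtracted and -0.0099 relative to ribosomal and oxidative phosphorylation genes. Of the 45, 41 were above 0, against 64% of all genes. At least 1.5-fold higher were 16 members (35.6%), against 15.6% of all genes. None reached 1.5-fold in the other direction (0 of 45), against 6.96%. At least 2-fold higher were 2 members, Psmd12 and Psma4, which is 4.44% beside 3.27% of all genes. The count below wild type by 2-fold was 0, beside 1.62%. The shift of the members was therefore made of many moderate ratios and few large ones. Other complexes of abundant proteins had similar values in the same column. The 62 cytosolic ribosomal protein genes had a median of 0.51 and the 73 oxidative phosphorylation genes one of 0.45, and 26 genes of each list were at least 1.5-fold higher. The 6 genes of the cytosolic chaperonin CCT had a median of 0.36 in DTrsp. The 11 hepatocyte markers also lay high in DTrsp, with 10 of 11 above 0, a range of -0.48 to 0.87 and a median of 0.64, and their part in the members' shift was not tested.

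**Figure D1:**
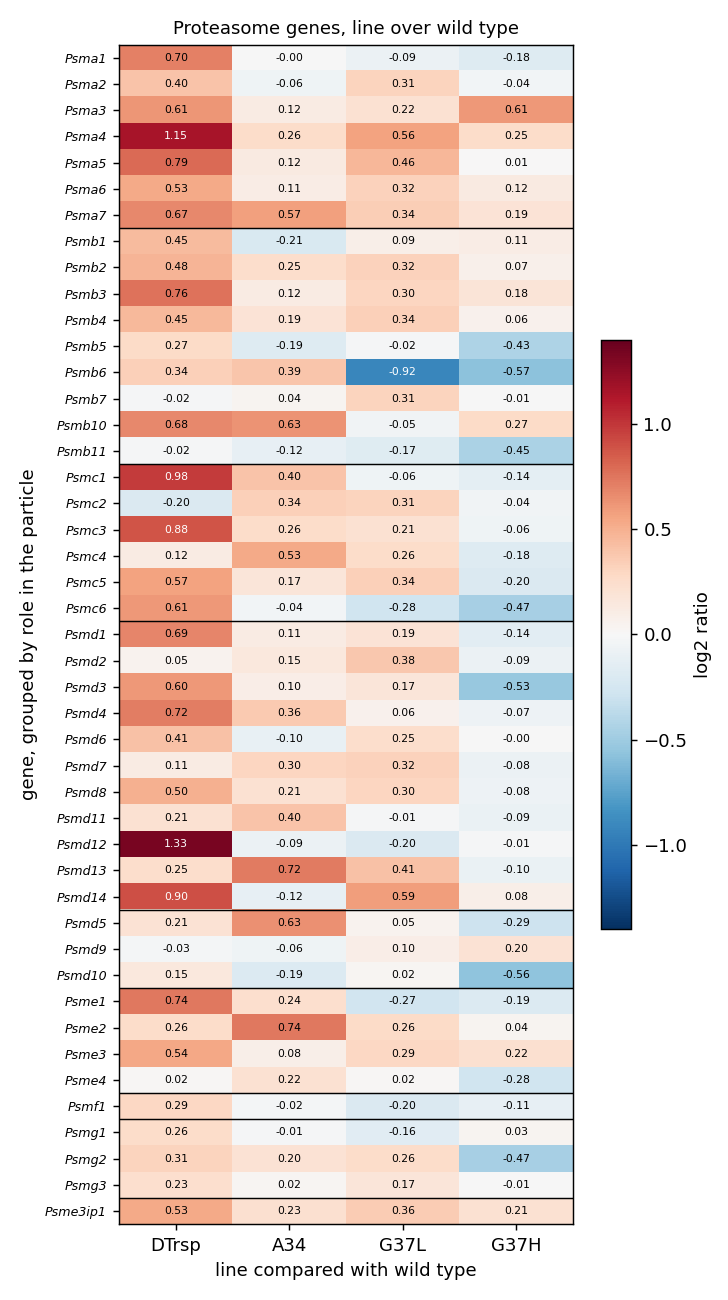
Log2 ratio of each of the 45 proteasome genes (rows, grouped by role from alpha ring at the top to the activator-interacting protein at the bottom) in each line compared with wild type (columns), as a colour and a printed value, the mean over the probes of a gene. DTrsp holds the highest values, up to 1.33 for Psmd12, and Psmb6 stands out in the beta ring with -0.92 in G37L.

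Within the core particle, the alpha ring lay above wild type throughout in DTrsp. All 7 alpha genes, Psma1 to Psma7, lay above 0 there, against 64% of all genes. They lay between 0.40 (Psma2) and 1.15 (Psma4), with a median of 0.67. Of the 7, 5 were at least 1.5-fold higher (71.4%), against 15.6% of all genes. Psma4 was at 1.15 in DTrsp and 0.26 in A34, with 0.56 in G37L and 0.25 in G37H. It ranked 179th highest of all genes in DTrsp and had a positive ratio in each of the 4 lines. Psma5 was at 0.79 in DTrsp and 0.12 in A34, with 0.46 in G37L and 0.01 in G37H. Psma3 was at 0.61 in DTrsp and 0.12 in A34, with 0.22 in G37L and 0.61 in G37H, where it was the highest member. That last value rests on probes that disagree, since 1 probe of Psma3 read 1.41 in G37H and the other -0.19.

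The 9 beta ring genes measured had a lower median in DTrsp, 0.45. Over the lines they ranged from -0.92 to 0.76, and the alpha genes from -0.18 to 1.15. The low end of the beta range was Psmb6 alone, since the other beta genes reached down to -0.45 (Psmb11 in G37H). Psmb5, Psmb6 and Psmb7 encode the catalytic subunits with chymotrypsin-like, caspase-like and trypsin-like activity. Psmb5 was at 0.27 in DTrsp and -0.19 in A34, with -0.02 in G37L and -0.43 in G37H. Psmb6 was at 0.34 in DTrsp and 0.39 in A34, with -0.92 in G37L and -0.57 in G37H. Psmb7 was at -0.02 in DTrsp and 0.04 in A34, with 0.31 in G37L and -0.01 in G37H. The DTrsp value of Psmb7 is a mean of probes at -0.23 and 0.19. In DTrsp each of these catalytic genes thus lay below the alpha ring median, and so did the non-catalytic Psmb1, Psmb2 and Psmb4. The interferon-inducible catalytic gene Psmb10, at 0.68 in DTrsp, lay just above it. The non-catalytic beta genes Psmb1, Psmb2, Psmb3 and Psmb4 lay between 0.45 and 0.76 in DTrsp, and Psmb11 was at -0.02 in DTrsp and -0.12 in A34, with -0.17 in G37L and -0.45 in G37H.

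Psmb6 was the lowest member in both G37 lines. In G37L it ranked 8789th of 9285 genes from the top, while the other 8 beta genes there lay between -0.17 and 0.34 and the 7 alpha genes between -0.09 and 0.56. It was the member at least 1.5-fold lower in G37L, 1 of 45, against 15.3% of all genes. The immunoproteasome subunit that can take its place, Psmb9, was at 0.24 in G37L and 0.74 in G37H, with 0.19 in DTrsp. Psmb9 was highest in A34, at 0.79, where Psmb6 was also above 0, at 0.39. Psmb6 was read by 1 probe, so no second probe checks its values.

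In the cap, the ATPase genes and the other subunits had similar medians in DTrsp, 0.59 for the 6 Psmc genes and 0.50 for the 11 non-ATPase subunits. Psmd12, a scaffold subunit of the lid, was at 1.33 in DTrsp and -0.09 in A34, with -0.20 in G37L and -0.01 in G37H. It was the highest member of all and ranked 109th of all genes in DTrsp, while in the transgenic lines it lay below 0. Psmd14, the deubiquitinase of the lid, was at 0.90 in DTrsp and -0.12 in A34, with 0.59 in G37L and 0.08 in G37H, and was the highest member in G37L. The ATPase gene Psmc1 was at 0.98 in DTrsp and 0.40 in A34, with -0.06 in G37L and -0.14 in G37H. Psmc2, another ATPase gene, was the lowest member in DTrsp at -0.20, and stood at 0.34 in A34, with 0.31 in G37L and -0.04 in G37H. The remaining ATPase genes, Psmc3 to Psmc6, lay between 0.12 and 0.88 in DTrsp.

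Other cap subunits have defined places in the path of a substrate. Psmd4, a receptor for ubiquitin chains, was at 0.72 in DTrsp and 0.36 in A34, with 0.06 in G37L and -0.07 in G37H. The large scaffold subunits Psmd1 and Psmd2 had different ratios in DTrsp. Psmd1 was at 0.69 in DTrsp and 0.11 in A34, with 0.19 in G37L and -0.14 in G37H. Psmd2 was at 0.05 in DTrsp and 0.15 in A34, with 0.38 in G37L and -0.09 in G37H, and its value in DTrsp is a mean of probes far apart. The subunits Psmd6, Psmd7, Psmd8 and Psmd11 lay between 0.11 and 0.50 in DTrsp.

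Genes that help to build the particle had medians closer to that of all genes in DTrsp than the subunit genes. The cap assembly factors Psmd5, Psmd9 and Psmd10 were at 0.21, -0.03 and 0.15 in DTrsp, and the core assembly factors Psmg1, Psmg2 and Psmg3 at 0.26, 0.31 and 0.23, against a median of 0.53 for the 31 structural subunits of core and cap. Each of the 3 cap assembly factors was read in part or in full by highest-numbered probes, which tended to read lower in DTrsp. Without those probes Psmd9 was at 0.17 and Psmd10 at 0.42 in DTrsp, and Psmd5 had no value. Psmd5 was at 0.63 in A34, 0.05 in G37L and -0.29 in G37H. Psmd10, also known as gankyrin, was at -0.19 in A34, 0.02 in G37L and -0.56 in G37H. Psmd9 was at -0.06 in A34, 0.10 in G37L and 0.20 in G37H, and Psmg2 at 0.20 in A34, 0.26 in G37L and -0.47 in G37H. Psmd5 was thus among the highest members of A34, and Psmd10 and Psmg2 were among the lowest of G37H. Psmg1 was at -0.01 in A34, -0.16 in G37L and 0.03 in G37H, and Psmg3 at 0.02 in A34, 0.17 in G37L and -0.01 in G37H. Psmf1, an inhibitor of the core particle in vitro, was at 0.29 in DTrsp and -0.02 in A34, with -0.20 in G37L and -0.11 in G37H. Pomp, the maturation factor of the core and no member by symbol, was at 0.89 in DTrsp and 0.36 in A34, with 0.66 in G37L and 0.24 in G37H, and so lay apart from the other assembly factors.

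**Figure D2:**
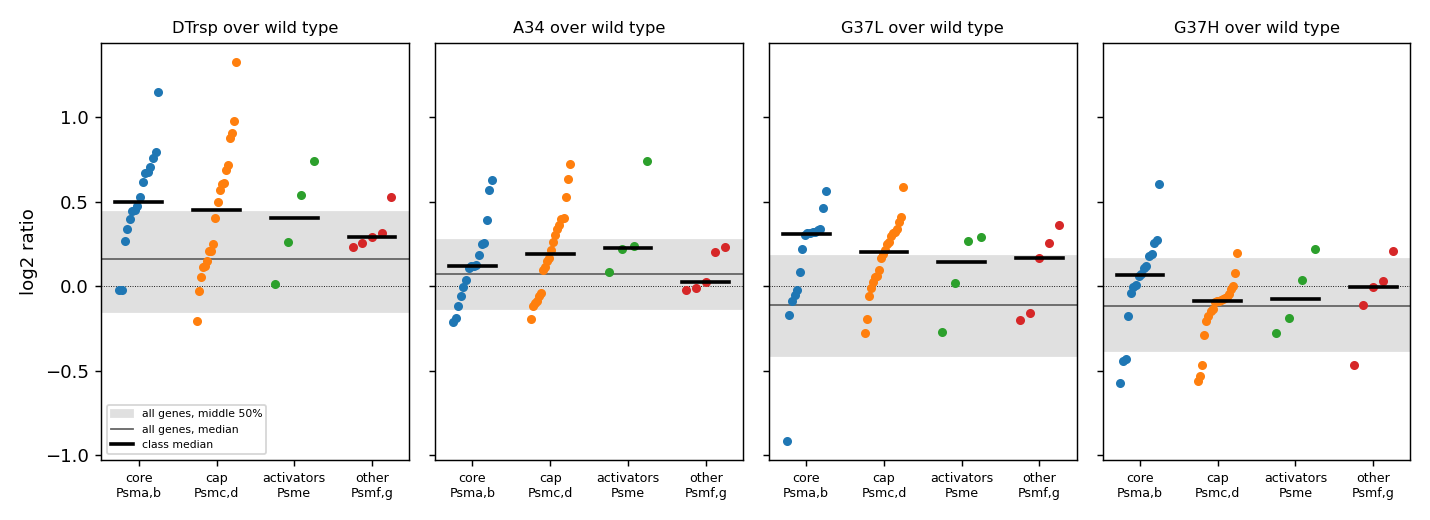
Log2 ratio of each member (points, sorted within a class) in 4 classes, 1 panel per line compared with wild type, with the class median (black bar) and the middle 50% and median of all 9285 genes (grey band and line). In DTrsp the medians of core and cap, 0.50 and 0.45, lie above the grey line, as do 14 of 16 core and 14 of 20 cap genes. Most cap genes in G37H lie between 0 and the bottom of the band.

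The promoters of Psmd12 and Psma4, the members at least 2-fold higher in DTrsp, are shown with those of the catalytic genes Psmb5 and Psmb6 and of the activator gene Psme1. In G37L and G37H, Psmb6 was at -0.92 and -0.57, and Psmb5 at -0.02 and -0.43. Sequences are RefSeq windows of 300 bases, from 250 before to 50 after the annotated start, on the GRCm38.p6 build, in the direction of transcription. Capitals mark matches, on either strand, to the antioxidant response element (TGACNNNGC), to which NRF1 and NRF2 bind, and to the interferon-stimulated element (a pair of GAAA blocks 2 bases apart). The windows lie at chr11:107479278-107479577 (plus strand, Psmd12), chr9:54950609-54950908 (plus strand, Psma4), chr14:54617946-54618245 (minus strand, Psmb5), chr11:70525107-70525406 (plus strand, Psmb6) and chr14:55578244-55578543 (plus strand, Psme1).
Psmd12: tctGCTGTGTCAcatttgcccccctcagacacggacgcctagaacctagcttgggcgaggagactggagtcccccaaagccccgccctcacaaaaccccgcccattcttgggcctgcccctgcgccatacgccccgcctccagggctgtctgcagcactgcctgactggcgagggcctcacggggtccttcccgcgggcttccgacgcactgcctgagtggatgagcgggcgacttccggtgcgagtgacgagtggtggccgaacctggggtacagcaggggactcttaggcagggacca
Psma4: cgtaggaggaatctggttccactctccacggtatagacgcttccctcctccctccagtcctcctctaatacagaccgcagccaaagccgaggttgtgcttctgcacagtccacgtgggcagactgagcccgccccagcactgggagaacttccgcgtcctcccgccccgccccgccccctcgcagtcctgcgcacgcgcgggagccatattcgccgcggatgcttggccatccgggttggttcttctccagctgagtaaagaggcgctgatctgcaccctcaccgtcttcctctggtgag
Psmb5: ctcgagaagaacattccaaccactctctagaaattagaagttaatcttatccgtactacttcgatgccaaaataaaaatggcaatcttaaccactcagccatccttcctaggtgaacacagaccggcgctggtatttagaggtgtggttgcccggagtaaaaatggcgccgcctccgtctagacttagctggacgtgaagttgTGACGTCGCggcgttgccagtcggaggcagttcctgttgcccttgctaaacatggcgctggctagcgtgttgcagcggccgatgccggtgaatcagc
Psmb6: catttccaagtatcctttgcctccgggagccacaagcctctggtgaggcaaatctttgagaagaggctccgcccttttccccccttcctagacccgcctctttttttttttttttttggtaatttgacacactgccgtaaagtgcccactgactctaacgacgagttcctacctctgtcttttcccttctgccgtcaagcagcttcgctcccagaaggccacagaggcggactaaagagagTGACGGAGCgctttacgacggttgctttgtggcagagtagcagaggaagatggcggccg
Psme1: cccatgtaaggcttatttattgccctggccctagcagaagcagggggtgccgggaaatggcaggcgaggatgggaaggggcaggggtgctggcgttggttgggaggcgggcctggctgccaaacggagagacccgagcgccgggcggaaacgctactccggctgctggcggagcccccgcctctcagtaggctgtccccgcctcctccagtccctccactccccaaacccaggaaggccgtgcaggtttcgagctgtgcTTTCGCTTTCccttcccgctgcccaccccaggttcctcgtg
The Psmd12 window held the antioxidant element near its far end, at base -247 relative to the start, and the Psma4 window held none. In Psmb5 the element began at base -47 and in Psmb6 at base -9, and the interferon-stimulated element of Psme1 began at base 9 after the start.

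Over all members with a window, 38 of the 45, the antioxidant element was present in 6, which were Psmb5, Psmb6, Psmc6, Psmd9, Psmd12 and Psme4. This share of 15.8% was close to the 14.8% of 17492 protein-coding genes with a window. The 6 genes had a median of 0.30 in DTrsp, and the 32 without the element one of 0.51. The CCAAT box (CCAAT), a general promoter motif, was found in 14 of the 38 members (36.8%), beside 42.3% of all genes. The interferon-stimulated element was found in 4, Psmb3, Psmd4, Psmd9 and Psme1 (10.5%), beside 3.94% of all genes. The heat shock element (alternating GAA and TTC blocks, 3 in all and 2 bases apart) was found in 0 of the 38, beside 0.595% of all genes. A match of letters in these short windows is a description and shows no binding.

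Partners of the proteasome outside the symbol rule also lay above wild type in DTrsp. Of 21 measured, such as shuttle factors, associated enzymes and regulators, 20 were above 0, against 64% of all genes, with a median of 0.44. At least 1.5-fold higher were 6 (28.6%), against 15.6% of all genes. At least 1.5-fold lower was 1, Fbxo7 at -0.75 in DTrsp, against 6.96% of all genes. Vcp, the ATPase that extracts ubiquitin-tagged proteins, was at 1.10 in DTrsp and 0.53 in A34, with 0.31 in G37L and -0.03 in G37H. Ngly1, the deglycosylase that takes part in NRF1 activation, was at 0.92 in DTrsp and -0.02 in A34, with -0.19 in G37L and -0.21 in G37H. The transcripts of the regulators themselves lay near the median of all genes in DTrsp, with Nfe2l1 at 0.16 and Nfe2l2 at 0.12. In the other lines Nfe2l1 was at -0.05 in A34, 0.07 in G37L and -0.02 in G37H, and Nfe2l2 was at 0.08 in A34, -0.73 in G37L, and lowest in G37H at -0.79. The 13 core NRF2 target genes measured had a median of 1.34 in DTrsp, with 10 at least 2-fold higher (76.9%), against 3.27% of all genes. The 11 heat shock genes, cytosolic except for the mitochondrial Hspd1 and Hspe1, had one of 0.87 in DTrsp. Both lists thus lay above the 31 structural subunits at 0.53.

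**Figure D3:**
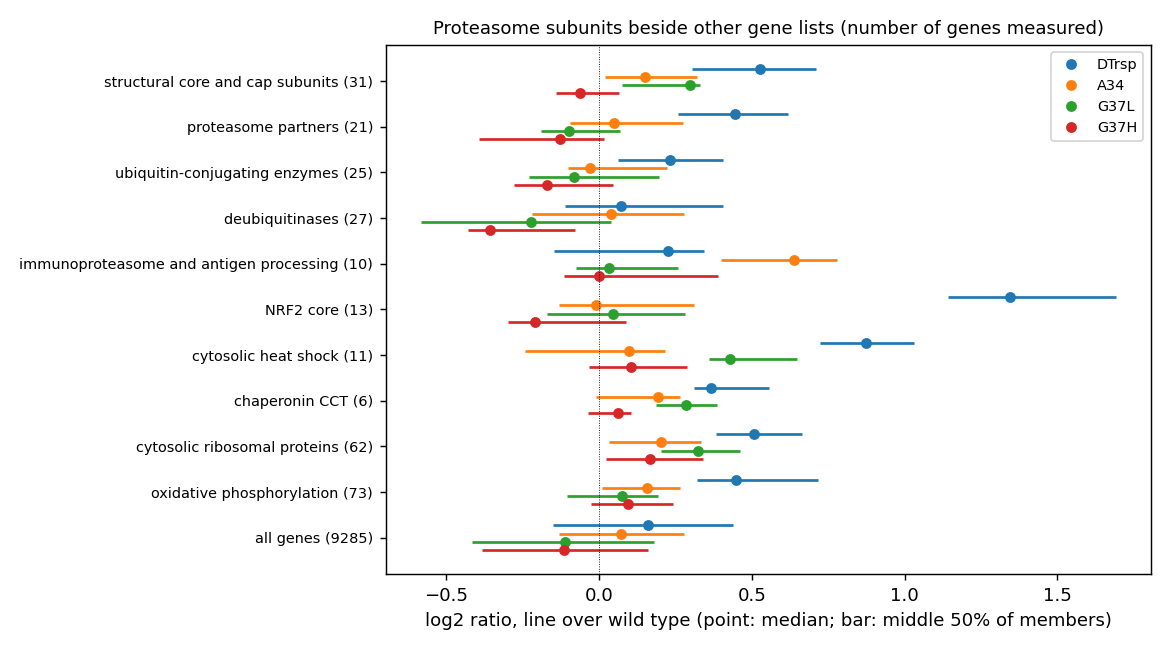
Median log2 ratio (point) and middle 50% (bar) of the 31 structural proteasome subunits, at the top, and of other gene lists down to all 9285 genes at the bottom, in each line over wild type (colours). In DTrsp the subunits, at 0.53, lie beside ribosomal protein genes at 0.51 and well below the NRF2 core at 1.34. The list labelled cytosolic heat shock also holds the mitochondrial Hspd1 and Hspe1.

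In A34 liver, most proteasome genes lay close to wild type and the interferon-inducible members Psme2 and Psmb10 were among the highest. The median of the 45 was 0.15, or 0.078 above the median of all genes and -0.027 relative to ribosomal and oxidative phosphorylation genes. Above 0 were 32 of them, against 59.1% of all genes. At least 1.5-fold higher were 4 members (8.89%), against 7.6% of all genes, and these were Psme2, Psmd13, Psmd5 and Psmb10. Without the highest-numbered 15% of probes, described further on, Psme2 and Psmb10 were left, 2 of 44 (4.55%) beside 7.22% of 8860 genes, since Psmd5 has no other probe and that of Psmd13 read 0.42. At least 1.5-fold lower were 0, against 2.65%. At least 2-fold higher were 0, against 1.4% of all genes, and at least 2-fold lower were 0, against 0.452%. Psmb10 was at 0.63 in A34, with 0.68 in DTrsp, -0.05 in G37L and 0.27 in G37H. Psme2, a subunit of the interferon-inducible activator ring, was at 0.74 in A34, with 0.26 in DTrsp, 0.26 in G37L and 0.04 in G37H. Its partner in that ring, Psme1, showed another order, at 0.24 in A34 and at 0.74 in DTrsp, -0.27 in G37L and -0.19 in G37H. The subunits left out by the rule were Psmb8, at 1.15 in A34, -0.29 in DTrsp, 0.33 in G37L and 0.78 in G37H, and Psmb9, at 0.79 in A34, 0.19 in DTrsp, 0.24 in G37L and 0.74 in G37H. The DTrsp value of Psmb8 is a mean of probes far apart, at 0.36, -0.28 and -0.94, the last a highest-numbered one. Those probes read between 1.14 and 1.16 in A34. The order of Psmb10 and Psme1, high in DTrsp, was not that of Psmb8 and Psmb9, which were highest in A34.

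Genes of antigen processing, interferon response genes and markers of macrophages, lymphocytes and other cells were set beside these values. The list for the immunoproteasome and antigen processing holds 10 genes, 5 of which are the proteasome genes just given. The other 5, Tap1, Tap2, Tapbp, B2m and Erap1, had a median of 0.55 in A34, with 0.16 in DTrsp, -0.05 in G37L and -0.07 in G37H, and 4 of the 5 were above 0 in A34, with the peptide transporter Tap1 at 1.36. All 9 interferon response genes measured were above 0 in A34, from 0.13 to 2.04. Their median was 0.47 in A34 and also 0.47 in G37L, against 0.08 in both DTrsp and G37H, while Psmb10 was at 0.63 in A34 and -0.05 in G37L. Of 11 Kupffer cell markers, the resident macrophages of liver, 10 were above 0 in A34, from -0.06 to 1.12, with a median of 0.60. These markers were also high in G37L, where all 11 lay from 0.21 to 1.60 with a median of 0.74, and in G37H, with a median of 0.58. Of 3 lymphocyte markers, Ighm was at 2.67 in A34, with -0.05 in DTrsp, -1.04 in G37L and -0.68 in G37H. The others, Cd3e and Cd8a, were at -0.01 and -0.44 in A34. Endothelial, stellate cell and cholangiocyte markers (6, 6 and 2 genes) had medians of 0.24, 0.24 and 0.45 in A34. The part of the interferon genes and of any of these cell markers in the values of Psmb10 and Psme2 was not tested.

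The remaining activators have other roles. Psme3, which forms an activator ring in the nucleus, was at 0.54 in DTrsp and 0.08 in A34, with 0.29 in G37L and 0.22 in G37H. Psme4, a large activator linked to DNA repair and spermatogenesis, was at 0.02 in DTrsp and 0.22 in A34, with 0.02 in G37L and -0.28 in G37H. Psme3ip1 was at 0.53 in DTrsp and 0.23 in A34, with 0.36 in G37L and 0.21 in G37H, and so lay nearer to Psme3 than to Psme4 in DTrsp, G37L and G37H.

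In A34 the lid subunit Psmd13 was at 0.72, against 0.25 in DTrsp, 0.41 in G37L and -0.10 in G37H. Its probes read 1.03 and 0.42 in A34, and -0.13 and 0.63 in DTrsp. The first of these is a highest-numbered probe, and without it Psmd13 was higher in DTrsp than in A34. At the other end, Psmb1 was the lowest member in A34 at -0.21, with 0.45 in DTrsp, 0.09 in G37L and 0.11 in G37H. The alpha ring, high in DTrsp, had a median of 0.12 in A34, and 1 of its 7 genes, Psma7 at 0.57, was far above the others, which lay between -0.06 and 0.26.

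The G37 lines carry the same tRNA change at 2 and 16 copies, and proteasome genes were lower with 16 than with 2. In G37H the median of the 45 was -0.06, against 0.22 in G37L, and 36 of the 45 were lower in G37H than in G37L, with a median difference of -0.25 (G37H minus G37L). Over all genes 50.9% were lower in G37H, with a median difference of -0.01. Of the 20 cap genes, 18 were lower in G37H, with a median difference of -0.35, and of the 16 core genes 12, with one of -0.22. The most negative differences were those of Psmg2, at -0.47 in G37H and 0.26 in G37L, and Psmd3, a lid subunit, at -0.53 in G37H and 0.17 in G37L. Psma3, Psmb6 and Psmb10 were higher in G37H, by 0.39, 0.34 and 0.33. Psmd3 was at 0.60 in DTrsp and 0.10 in A34.

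The difference between the G37 lines was shared by some other complexes and not by others. The 6 subunit genes of the cytosolic chaperonin CCT were all lower in G37H, with a median of 0.06 in G37H and 0.28 in G37L. Of 62 ribosomal protein genes, 51 were lower in G37H (82.3%), with a median of 0.17 in G37H and 0.32 in G37L. Oxidative phosphorylation genes were lower in G37H in 32 of 73 (43.8%), with a median of 0.09 in G37H and 0.07 in G37L. The hepatocyte markers were lower in G37H in 4 of 11, with medians of 0.26 in G37H and 0.43 in G37L and a median difference over the genes of 0.05. The arrays of G37H averaged 3 animals and those of G37L 4, and the effect of copy number cannot be told apart from that of the transgene's insertion or of the line.

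Against the other genes of its own column, the proteasome stood relatively high in G37L, as it did in DTrsp. In DTrsp 36 of the 45 members (80%) lay above the median of all genes, and in A34 30 (66.7%). In G37L 38 of the 45 members (84.4%) lay above that median, and 33 above 0, against 39.4% of all genes. At least 1.5-fold higher was 1 member, Psmd14, against 7.45%, and at least 2-fold higher or lower were 0, against 2.51% and 3.96%. The 31 structural subunits had a median of 0.30 in G37L, close to the ribosomal protein genes at 0.32 and the chaperonin genes at 0.28. The lowest members in G37L after Psmb6 were the ATPase gene Psmc6, at -0.28 in G37L, 0.61 in DTrsp, -0.04 in A34 and -0.47 in G37H, and the activator gene Psme1. Both values are means of probes that differ, at -0.57 and 0.01 for Psmc6 and at -0.04 and -0.50 for Psme1 in G37L.

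In G37H, 16 of the 45 members lay above 0, against 38.4% of all genes, and 30 lay above the median of all genes. The members' median of -0.06 thus became 0.053 once that median was subtracted. At least 1.5-fold higher was 1, Psma3, against 7.3% of all genes. The count below wild type by 1.5-fold was 0, against 13.1%. At least 2-fold higher or lower were 0, against 2.78% and 3.1%. In this line 10 of 16 core genes and 2 of 20 cap genes were above 0, with medians of 0.07 and -0.09. All 6 ATPase genes were below 0 there, between -0.47 (Psmc6) and -0.04 (Psmc2), and of the 11 non-ATPase subunits Psmd14 alone, at 0.08, was above 0.

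Set side by side, 33 of the 45 members had their highest value in DTrsp, against 45.1% of all genes, and 28 had their lowest in G37H, against 34.5%. With the median of all genes subtracted from each column, 17 were highest in DTrsp and 17 in G37L, against 30.0% and 24.0% of all genes, and 18 were lowest in A34 and 18 in G37H, against 23.2% each. The place of DTrsp above G37L thus depended on the level set for the column. So did that of G37H, which alone held most of the lowest values as deposited and tied with A34 after centring.

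The precision of these values can be judged in part from genes read by several probes, which were 19 of the 45 members. In DTrsp the highest and lowest probe of a gene were a median of 0.60 apart, with 11 of the 19 genes over 0.5 apart and 10 with probes on both sides of 0. In A34 the median gap was 0.37, in G37L 0.14 and in G37H 0.17. Over all 2414 genes with several probes it was 0.52 in DTrsp and 0.35 in A34, with 0.37 in G37L and 0.36 in G37H. The widest gap in DTrsp was that of Psmc4, with 1 probe at 0.76 and the other at -0.52, and those probes read 0.24 and 0.82 in A34. Probes of Psmd2 read 0.62 and -0.52 in DTrsp and 0.04 and 0.26 in A34. Those of Psme4 read 0.61 and -0.58 in DTrsp and -0.17 and 0.60 in A34. Those of Psmb2, with the widest gap after Psmc4, read 1.08 and -0.13 in DTrsp and 0.47 and 0.03 in A34. For these 4 genes, the widest apart in DTrsp, the mean ratio there combined a high and a low reading, and in A34 the probe that was the lower one in DTrsp was higher for Psmc4, Psmd2 and Psme4 and lower for Psmb2.

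Part of the disagreement went with the probes' numbers in the deposited table, a split also chosen after the values were seen. Of the 4 genes just named, Psmc4 and Psmb2 have a probe among the highest-numbered 15%, and Psmd2 and Psme4 have none. In the 12 members with a probe among the highest-numbered 15% and another outside it, the highest-numbered probe was lower in DTrsp in 11, with a median difference of -0.50. Over all 1223 genes with both kinds it was lower in 66.6%, by a median difference of -0.22. In A34 it was higher in 8 of the 12 members and in 60.9% of all such genes. Without these probes the members' median in DTrsp was 0.55 over 44 genes, beside 0.19 over all 8860 genes left. At least 1.5-fold higher were then 21 members (47.7%), against 17.8% of those genes, and 4 rather than 2 members were at least 2-fold higher. The values of Psmd12, Psma4, Psmc1 and Psmd14, the highest in DTrsp, rest on 1 probe each.

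**Figure D4:**
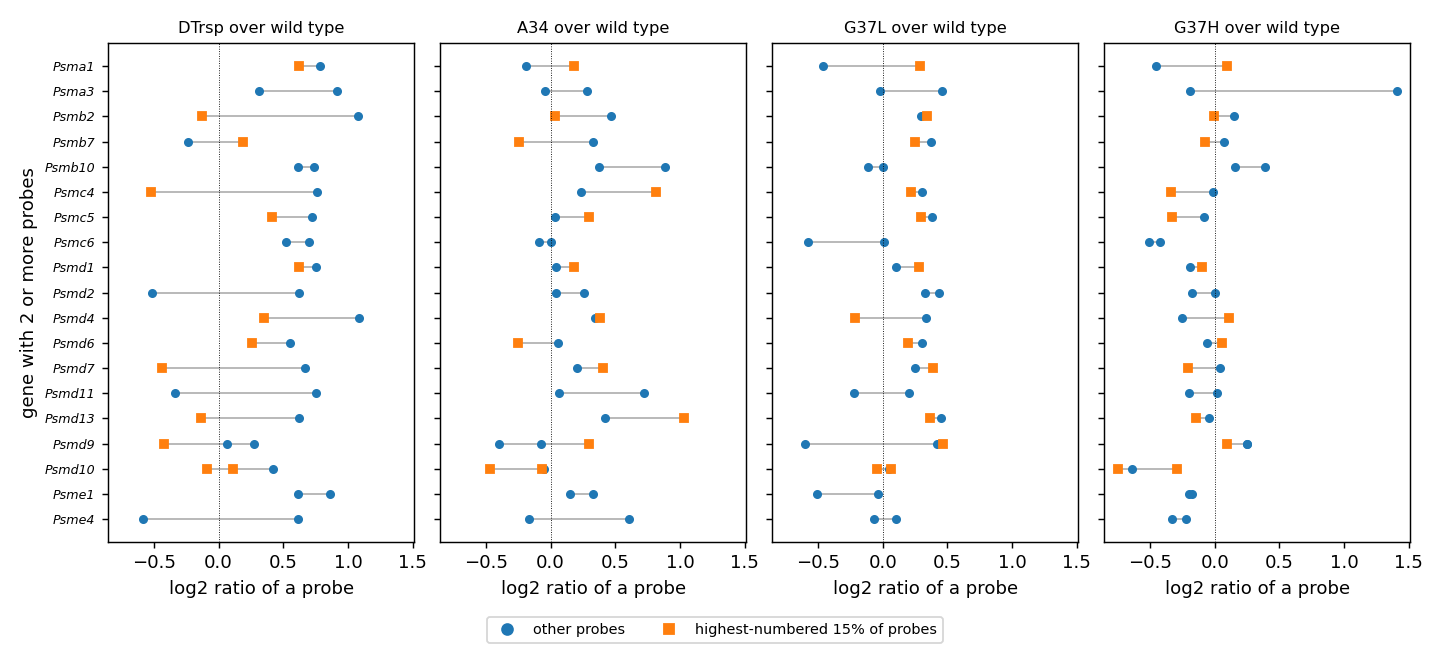
Log2 ratio of every probe (points) of the 19 members with 2 or more probes (rows), in each line over wild type (panels), with squares for the highest-numbered 15% of probes and circles for the others, joined within a gene. Gaps are wide in DTrsp, with a median of 0.60, and narrower in G37L and G37H, with medians of 0.14 and 0.17. Over 0.5 apart there were 4 genes in G37L, with Psmd9 the widest at 1.06, and 2 in G37H, with Psma3 the widest at 1.60.

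The decimals of a value show how many arrays some averages rest on. In DTrsp 4 of the 66 member probes had decimals that only an average over 3 arrays gives, which were 1 probe each of Psma3, Psmd4, Psmd5 and Psmd13. In A34 and G37L there were 0 such probes, and in G37H 1 probe, of Psmd4, had decimals of an average over 2 arrays in place of 3. Over all 15478 probes these shares were 14.0% in DTrsp and 13.5% in A34, with 5.77% in G37L and 14.4% in G37H, beside 6.06% of member probes in DTrsp and 1.52% in G37H. Leaving such probes out moved the members' median by less than 0.05 in each line.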

How the data were processed

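Total RNA (15 µg) of each liver was copied into oligo-dT-primed cDNA and coupled to Cy3 (wild type) or Cy5 (mutant), per the labels. The values used were log ratios, read as log2, that the authors averaged over 4, 4, 4 and 3 animals for DTrsp, A34, G37L and G37H, per the labels. The normalization, background correction, spot filter and log base were not given in the sources used here.

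Of 15478 probes, 13047 carried 1 gene symbol in the platform annotation, 110 carried several, and 2321 were not in it and stayed unnamed. Probes of a gene were averaged. The gene table of assembly GRCm38.p6 changed 0 symbols among the 66 member probes. Thresholds were 1.5-fold and 2-fold. With 1 averaged column per comparison no statistical test was run. The members and gene lists were chosen with earlier results of these data known. Values in all lines are given for members at least 2-fold from 0, the 3 highest and 3 lowest of each line, the catalytic set, activators, inhibitor and assembly factors. Of other lists at most 4 genes per line are named, besides Nfe2l1, Nfe2l2 and Pomp. Other members named, and Psmb8 and Psmb9, were chosen after their values were seen. None of 6 ubiquitin and activating-enzyme genes had a named probe, and they were not analysed here. Calculations used Python 3.11.15, numpy 2.4.6 and pandas 2.3.3, and were tested on simulated data.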

Additional observations from a re-analysis of the deposited data

Results flagged for a closer look

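The median over the 45 proteasome genes had opposite signs in G37H and in each other line. It was 0.51 lower on the log2 scale in G37H than in DTrsp (DTrsp minus G37H, 0.51, from medians of 0.45 in DTrsp and -0.06 in G37H), A34 minus G37H was 0.21, and G37L minus G37H was 0.28. These differences were not tested, since each line has 1 averaged value per gene. With each column centred on its own median over all genes the G37H median was 0.053, and the signs no longer differed.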

How the results depend on the processing

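No paired analysis was possible because each column is already an average over animals, which also prevented leaving out an animal. Medians of the 45 members were 0.45 in DTrsp and 0.15 in A34, with 0.22 in G37L and -0.06 in G37H. Centred on the column median they were 0.29, 0.078, 0.33 and 0.053. Centred on ribosomal and oxidative phosphorylation genes they were -0.0099, -0.027, 0.040 and -0.19, so the sign in DTrsp, A34 and G37H depends on the centring, because the subtracted level is as large as the members' own. Read as natural logs, DTrsp, A34 and G37L were at 0.65, 0.22 and 0.31, and A34 scaled to the spread of DTrsp was at 0.22. Without assembly factors, inhibitor and tissue-specific subunits DTrsp was at 0.53 and G37L at 0.28. DTrsp was at 0.51 with probes counted singly and, in an alternative chosen after seeing the data, 0.55 without the highest-numbered probes. G37H was at -0.011 over genes with 1 probe. The other 31 medians stayed within 0.05.

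Members at least 2-fold higher in DTrsp numbered 2, against 1 centred on the column median, 0 centred on ribosomal and oxidative phosphorylation genes, 4 with probes counted singly, 10 read as natural logs, 16 at 1.5-fold, 0 at 3-fold and 4 without the highest-numbered probes. In A34 they numbered 0, against 1 with single probes, 2 after scaling, 2 as natural logs and 4 at 1.5-fold. In G37H they were 0, against 1 with single probes and 1 at 1.5-fold, and in G37L 0, against 1 at 1.5-fold. At least 2-fold lower in G37L were 0, against 1 centred on ribosomal and oxidative phosphorylation genes, 1 as natural logs and 1 at 1.5-fold. The other 95 counts were unchanged or within 1.5 times. Updating symbols, leaving out probes averaged over fewer arrays and leaving out Psme3ip1, the last added later, changed none of these medians by more than 0.05. The lack of signal intensities means that no gene can be called above background.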

Other observations

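Ubiquitin-conjugating enzymes and deubiquitinases, which act upstream of and at the proteasome, did not share the members' level in DTrsp. The 25 measured Ube2 genes had a median of 0.23 in DTrsp and -0.03 in A34, with -0.08 in G37L and -0.17 in G37H, and the 27 Usp genes one of 0.07, 0.04, -0.22 and -0.36. The single gene farthest from 0 in A34 among them was Ube2l6, the interferon-inducible enzyme that conjugates ISG15, at 1.62 in A34, 0.37 in DTrsp, 0.55 in G37L and 0.41 in G37H. At least 1.5-fold lower were 2 of the 27 Usp genes in G37H (13.1% of all genes) and 7 of the 27 in G37L (15.3% of all genes). The Usp genes farthest below 0 in these lines were few: Usp42 was at -1.64 in G37H and -0.94 in G37L, Usp38 at -1.35 in G37H and -1.25 in G37L, and Usp45 at -0.51 in G37H and -1.56 in G37L. Each of these 3 was read by 1 probe, and the deubiquitinase Usp36, also with 1 probe, was at -1.25 in A34 and 0.68 in DTrsp.

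Usp14, which trims ubiquitin chains on the cap, was at 0.46 in DTrsp and 0.05 in A34, with 0.06 in G37L and -0.41 in G37H, and Sem1, a small lid subunit outside the symbol rule, was at 0.43 in DTrsp and 0.28 in A34, with 0.27 in G37L and 0.28 in G37H. The shuttle factor Rad23b was at 0.62 in DTrsp and 0.02 in A34, with -0.14 in G37L and -0.39 in G37H, and Ubqln2, another shuttle factor, at 0.76 in DTrsp and -0.24 in A34, with -0.31 in G37L and -0.88 in G37H. These 4 genes were chosen after their values were seen. Ubqln2 thus had the widest range of the 4, and Sem1 the narrowest.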
